A study of Mus musculus with 9 samples.

Results

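Matrix proteases cut the proteins that surround muscle fibres and their stem cells, and a small set of inhibitors holds them in check. The account covers 9 genes of this system, taken by symbol from the authors' deposited gene tables: the metalloproteinases Mmp2, Mmp9 and Mmp14, the metalloproteinase inhibitors Timp1, Timp2 and Timp3, the urokinase Plau, its receptor Plaur, and the serine protease inhibitor Serpine2. All 9 were among the 22631 genes of the table that compares Mutant with Control, and 8 were among the 27775 genes of a second table, where Mmp9 was not listed. Serpine2 and Mmp2 had been noted as higher in Mutant when the set was drawn up, so values of that comparison describe the genes and are not a test of them.

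The cells were satellite cells, which are muscle stem cells, from hindlimb muscles of 9-week-old mice. Per the labels, 3 Mutant libraries came from mice given tamoxifen, whose satellite cells were made deficient in Uhrf1. The 3 Cre Control libraries also came from mice given tamoxifen, and the 3 Control libraries from mice given oil. The sources used here name neither the Cre driver nor the alleles, and do not say whether each library is a separate animal. Mutant mice were injected with 150 µl of tamoxifen at 20 mg/ml on 5 days, and Mutant and Control cells were seeded at 5000 cells/cm2 on a Matrigel-coated slide and kept in culture for 3 days, per the protocols in the labels. Tamoxifen and loss of Uhrf1 cannot be told apart between Mutant and Control. No values labelled as Cre Control were analysed here. The labels do not say which groups PT and PUT, the arms of the second table, are. Whether that table rests on Cre Control libraries is therefore unknown.

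As background, the system works as 2 linked cascades. Urokinase, held at the cell surface by its receptor, turns plasminogen into plasmin, which digests matrix and activates secreted metalloproteinases. Mmp14 sits in the membrane and activates the secreted Mmp2 in a complex in which Timp2 forms the bridge, while free TIMPs block the active sites. In muscle, this proteolysis is known for opening the basal lamina, so that activated satellite cells can leave their niche, and for releasing growth factors bound to the matrix.

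Uhrf1 keeps CpG methylation through cell division, so the CpG content of the promoters is shown first. RefSeq's table (GRCm38.p6) held a promoter for 6 of the 9 genes and none for Mmp2, Mmp9 and Plau. Each window covers 200 bases, from 250 to 51 bases before the annotated start, read 5′ to 3′ along the gene, with each CpG in capitals. Shown are Serpine2, the CpG-rich promoter of the gene with the highest level in Mutant, Mmp14, whose level was also higher there, and Plaur, whose level was lower. The windows lie at chr1:79858716-79858915 on the minus strand for Serpine2, chr14:54431348-54431547 on the plus strand for Mmp14, and chr7:24462233-24462432 on the plus strand for Plaur.
Serpine2: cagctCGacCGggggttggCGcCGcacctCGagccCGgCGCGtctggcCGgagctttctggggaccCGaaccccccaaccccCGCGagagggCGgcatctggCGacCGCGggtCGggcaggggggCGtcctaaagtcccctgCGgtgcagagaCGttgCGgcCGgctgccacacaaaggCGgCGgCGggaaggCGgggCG
Mmp14: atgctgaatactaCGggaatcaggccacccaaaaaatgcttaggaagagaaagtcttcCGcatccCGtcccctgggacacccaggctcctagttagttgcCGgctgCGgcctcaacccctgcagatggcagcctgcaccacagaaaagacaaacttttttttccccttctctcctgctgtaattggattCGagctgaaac
Plaur: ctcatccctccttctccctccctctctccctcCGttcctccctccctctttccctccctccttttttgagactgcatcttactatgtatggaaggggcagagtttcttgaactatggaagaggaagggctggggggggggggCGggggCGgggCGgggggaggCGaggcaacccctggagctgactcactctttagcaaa

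The Serpine2 window held 27 CpGs, more than 96.5% of the 32851 promoters in the table, whose median was 4. Timp2 had 15, Timp3 13, Mmp14 6, and Timp1 and Plaur 5 each. Of the genes that were higher in Mutant and have a window, Mmp14 and Timp1 were therefore close to the median and Serpine2 far above it. Of the 200 bases of the Timp2 window, 153 are exon of Timp2 itself in GENCODE M21, since the RefSeq start lies 329 bp inside the outermost start there. The GC box GGGCGG, searched on both strands, was found 3 times in the Plaur window and once in that of Serpine2, and in 24.6% of all windows. The AP-1 motif TGANTCA, also searched on both strands, occurred once, in Plaur, against 5.57% of all windows. For Serpine2 the start used by RefSeq lay 2515 bp inside the outermost start of GENCODE M21, so the window does not stand before the outermost annotated start. DNA methylation itself was not analysed here.

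**Figure D1:**
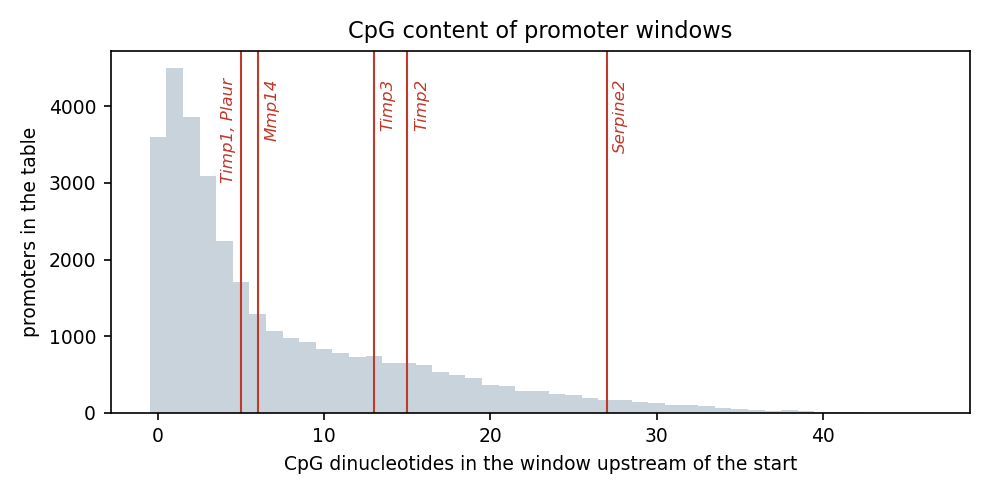
CpG dinucleotides in the 200-base window upstream of the start (horizontal axis) against the number of promoters in the table (vertical axis), with red lines at the 6 genes that have an entry. Serpine2, at 27 CpGs, lies far to the right of Timp1 and Plaur, at 5.

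Levels were read from the authors' deposited table as mean TPM (a level scaled to library size and transcript length, which can be compared between genes). Values of single libraries were not analysed here, so means stand without a spread, and depth per library is unknown for genes. Each fold change with a standard error (SE) is the estimate of the authors' test on the log2 scale. Over all genes of the authors' deposited table the median of that estimate was 0.01. The targeted gene, Uhrf1, averaged 20.4 TPM in Mutant and 118 TPM in Control in the authors' deposited table. Repeat counts, the values deposited per library, place 1 Control library apart. The retroviral repeat IAPEz-int had 177784, 215005 and 364521 counts in Mutant libraries, and 8987, 15151 and 265619 counts in Control 1, 2 and 3. The sources used here do not say whether Control 3 entered the gene means, and no gene value could be computed without it.

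Serpine2, Mmp2, Mmp14 and Timp1 were higher in Mutant, and Plau and Plaur lower. By the authors' adjusted p below 0.05, 6 of the 9 genes were called, 4 higher and 2 lower, in a table where 17.1% of all genes were called (9.03% higher and 8.1% lower). Because the set was chosen on this comparison, nothing is read from that count. Plau lay just inside the threshold, with an adjusted p of 0.0476 in the authors' deposited table, and Timp2 was the nearest gene outside it, with 0.400. In Mutant the levels ran from Serpine2 down through Timp2, Timp1, Plau, Mmp14, Plaur, Mmp2 and Timp3 to Mmp9. In Control they ran from Plau through Timp2, Timp1, Plaur, Serpine2, Mmp14, Mmp2 and Timp3 to Mmp9. With no spread over libraries, neighbours in these orders cannot be told apart. The summed level of the 9 genes was 1033 TPM in Mutant and 719 TPM in Control in the authors' deposited table. The 4 inhibitors (Timp1, Timp2, Timp3 and Serpine2) summed to 670 TPM in Mutant and 395 TPM in Control in the authors' deposited table. The 4 proteases (Mmp2, Mmp9, Mmp14 and Plau) summed to 313 and 257 TPM there. Serpine2, a serine protease inhibitor noted as higher beforehand, made up 240 and 54.1 TPM of the inhibitor sums. The 3 metalloproteinases alone summed to 136 TPM in Mutant and 62.1 TPM in Control, and the 3 TIMPs to 430 and 341 TPM, in that table. Sums over unlike classes thus do not measure a balance of proteases and inhibitors. In bulk RNA, more cells of a type and more RNA per cell cannot be told apart.

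**Figure D2:**
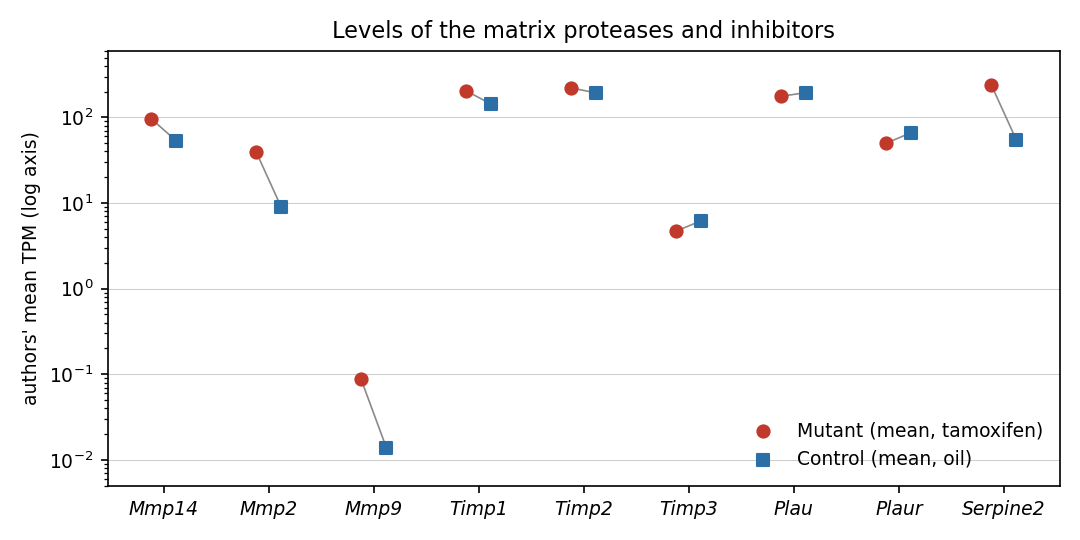
Authors' mean TPM on a log axis for the 9 genes, with Mutant as red circles and Control as blue squares, and a line joining the 2 means of a gene. Serpine2, Mmp2 and Mmp9 show the steep lines, Timp2 and Plau nearly flat ones, and Mmp9 lies far below the rest.

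Serpine2 (ENSMUSG00000026249), also called protease nexin-1, is a serpin that inhibits thrombin, urokinase and plasmin. It averaged 240 TPM in Mutant and 54.1 TPM in Control in the authors' deposited table, a ratio of 4.43 (test estimate 2.11, SE 0.29). By those means it stood above 97.3% of all genes by level in Mutant and above 86.2% in Control, and had rank 1 of the 9 genes by level in Mutant and rank 5 in Control. The gene lies on chromosome 1 from 79794197 to 79861180 on the minus strand (GRCm38).

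Plau (ENSMUSG00000021822; chromosome 14, 20836660 to 20843385, plus strand) encodes the urokinase plasminogen activator. Its means were close, at 176 TPM in Mutant and 195 TPM in Control in the authors' deposited table (−0.16, SE 0.06). Plaur (ENSMUSG00000046223; chromosome 7, 24462484 to 24475968, plus strand) encodes the receptor that anchors urokinase to the membrane. It averaged 49.9 TPM in Mutant and 66.6 TPM in Control in the authors' deposited table (−0.41, SE 0.10). The order of urokinase and this inhibitor differed between the groups: the ratio of Serpine2 to Plau levels was 1.36 in Mutant and 0.277 in Control, computed from the authors' deposited table.

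Mmp14 (ENSMUSG00000000957; chromosome 14, 54431612 to 54445364, plus strand) encodes the membrane-anchored collagenase that activates Mmp2. It averaged 96.7 TPM in Mutant and 53.2 TPM in Control in the authors' deposited table (0.80, SE 0.18). Mmp2 (ENSMUSG00000031740; chromosome 8, 92827291 to 92853420, plus strand) encodes gelatinase A, which digests denatured collagen and type IV collagen of basement membranes. It averaged 39.7 TPM in Mutant and 8.91 TPM in Control in the authors' deposited table, a ratio of 4.45 (2.05, SE 0.38). Both genes of the activation pair were higher in Mutant, Mmp2 by the larger ratio. There were 2.44 Mmp14 transcripts per Mmp2 transcript in Mutant, and 5.97 in Control, by the means of the authors' deposited table.

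Mmp9 (ENSMUSG00000017737; chromosome 2, 164940780 to 164955850, plus strand), gelatinase B, was barely present. Its means were 0.0872 TPM in Mutant and 0.0139 TPM in Control in the authors' deposited table, and its test estimate of 2.40 had an SE of 2.10. At that level no difference was detectable. The gelatinase message in these cultures was therefore almost wholly Mmp2 in both groups.

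Among the TIMPs, Timp1 had the larger difference. Timp2 (ENSMUSG00000017466; chromosome 11, 118301069 to 118355740, minus strand), the bridge between Mmp14 and Mmp2 as well as an inhibitor, averaged 221 TPM in Mutant and 192 TPM in Control in the authors' deposited table (0.21, SE 0.14). Timp1 (ENSMUSG00000001131; chromosome X, 20870166 to 20874735, plus strand), an inhibitor of secreted metalloproteinases that also binds the proform of Mmp9, averaged 204 TPM in Mutant and 142 TPM in Control in the authors' deposited table (0.51, SE 0.11). Timp3 (ENSMUSG00000020044; chromosome 10, 86300372 to 86349506, plus strand) binds the matrix and also inhibits ADAM17 and ADAMTS proteases. It was the scarce member of the family, at 4.70 TPM in Mutant and 6.21 TPM in Control in the authors' deposited table (−0.08, SE 0.21). Timp1 was called, and Timp2 and Timp3 were not. Timp2 transcripts outnumbered those of Mmp2 by 5.58 to 1 in Mutant and 21.6 to 1 in Control, and those of Mmp14 by 2.29 to 1 and 3.62 to 1, by the means of the authors' deposited table.

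Overlapping genes touch the TIMPs. Timp3 shares 1733 exonic bases, 21.3% of its own, with Syn3 on the opposite strand in GENCODE M21, while Timp1 lies within Syn1 and Timp2 overlaps Cep295nl, each with 0 shared exonic bases. The library kit was strand-specific per the labels' protocols, but the sources used here do not say whether counting used the strand. Syn3 itself averaged 0.237 TPM in Mutant and 0.0849 TPM in Control in the authors' deposited table.

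The second table compares the arms PT and PUT, and in it 47.2% of all genes were called at an adjusted p below 0.05 (25.1% higher and 22.1% lower). Uhrf1 was lower in PT, by −4.00 on the log2 scale (SE 0.27) in the authors' deposited table. The sources used here do not say whether it shares libraries with the first, so the values stand beside each other without a test of their likeness and give no independent support. Of the 8 genes listed, 7 were called, 5 higher and 2 lower, in the authors' deposited table. The median log2 fold change of the 8 was 0.37, and that of all genes 0.14, in the authors' deposited table.

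Serpine2 was higher in PT by 0.59 (SE 0.07 and adjusted p = 9.63e-16 by the authors' deposited table), a fold of 1.51. Mmp2 was higher by 0.82 (SE 0.11 and adjusted p = 4.22e-13 by the authors' deposited table). Mmp14 was higher by 0.43 (SE 0.09 and adjusted p = 1.13e-05 by the authors' deposited table). For Serpine2 the value was thus 0.59 here and 2.11 for Mutant over Control, and for Mmp2 0.82 and 2.05, in the authors' deposited tables. The difference between the comparisons was not tested.

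The urokinase pair was lower in PT. Plaur fell by 1.17 on the log2 scale (SE 0.12 and adjusted p = 1.58e-22 by the authors' deposited table), so that PUT stood 2.25-fold above PT. Plau fell by 0.52 (SE 0.08 and adjusted p = 3.81e-11 by the authors' deposited table). Both also had negative estimates for Mutant over Control, −0.41 and −0.16 in the authors' deposited table.

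Among the TIMPs, Timp3 was higher in PT by 1.78 (SE 0.34 and adjusted p = 6.08e-07 by the authors' deposited table), where its mean normalised count was low at 43.6. It was the one of the 8 genes whose estimates had opposite signs. Its value for Mutant over Control was −0.08 (SE 0.21 and adjusted p = 0.926 by the authors' deposited table), so the sign there is undetermined. Timp1 was higher in PT by 0.31 (SE 0.10 and adjusted p = 0.00445 by the authors' deposited table). Timp2 was not called, with 0.10 (95% interval −0.07 to 0.27 from the deposited SE, adjusted p = 0.373, all by the authors' deposited table).

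The marker lists of further cell types also held calls in PT. By the authors' deposited table, 3 of 6 listed macrophage and leukocyte markers were higher and 1 lower in PT. Of 9 endothelial markers 4 were higher and 0 lower, and of 9 smooth muscle and pericyte markers 5 were higher and 2 lower. The shares called were 66.7%, 44.4% and 77.8%, against 47.2% over all genes (25.1% higher and 22.1% lower). Of 10 fibroblast markers 2 were higher, Pdgfra by 1.38 (SE 0.31) and Dcn by 4.04 (SE 1.25), at mean normalised counts of 46.0 and 5.63. The 3 lower were Col3a1 (−1.49, SE 0.08), Col1a2 (−1.32, SE 0.22) and Gsn (−0.21, SE 0.09), at mean normalised counts of 8889, 1764 and 3475. Of 10 satellite cell and myoblast markers 2 were higher and 6 lower, by the authors' deposited table. The shares called in these 2 lists were 50% and 80%. Laptm5 (2.00, SE 0.12) and Fcer1g (4.65, SE 0.64) led the macrophage list in the authors' deposited table by test statistic. Their mean normalised counts were 555 and 29.4. The 1 lower marker of that list was Csf1r (−0.46, SE 0.16, adjusted p = 0.00861 by the authors' test), at a mean normalised count of 177. The part of other cells in the PT values of Mmp2, Timp3, Plau, Plaur and the other genes was not tested.

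**Figure D3:**
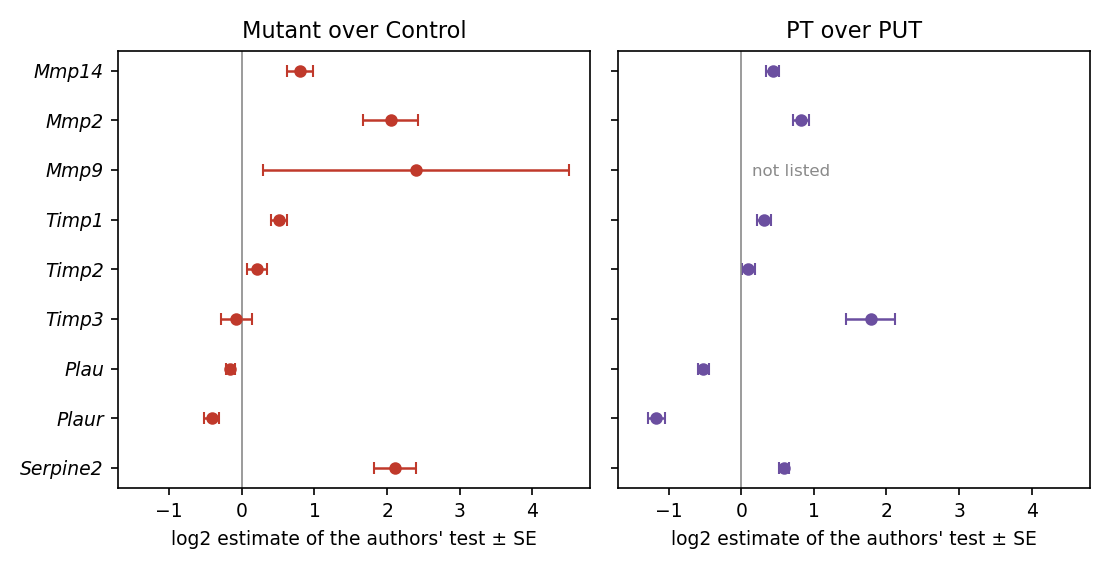
Estimates of the authors' tests on the log2 scale with their standard errors as bars, for Mutant over Control on the left and PT over PUT on the right. Serpine2 lies at 2.11 on the left and 0.59 on the right, Timp3 at −0.08 and 1.78, and Mmp9, with an SE of 2.10 on the left, is not listed on the right.

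The wider protease families were described from 7 lists, which overlap in part. Together they hold 109 further genes, of which 102 were in the Mutant and Control table and 89 in the second. By the authors' deposited tables, calls were made for 32 of the 102, 28 higher and 4 lower in Mutant, and 35 of the 89, 17 higher and 18 lower in PT. The shares called were 31.4% for Mutant over Control, against 17.1% over all genes, and 39.3% for PT over PUT, against 47.2% over all genes. Of the 22631 genes behind the 17.1%, 13625 had a mean of 1 TPM or more. Shares of the lists are not matched to all genes by level.

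Of the other metalloproteinases, 15 of 20 were in the authors' deposited table, 3 of them higher and 1 lower in Mutant, a share of 26.7% against 17.1% over all genes. Only 4 of the 15 had a mean of 1 TPM or more. The median test estimate was 0.17 over the 15 and 0.79 over those 4, against 0.01 over all genes and −0.01 over all genes at that level. The one that was lower, Mmp15, is a second membrane-type enzyme, at 14.0 TPM in Mutant and 22.2 TPM in Control (−0.70, SE 0.11, adjusted p = 3.88e-09, all by the authors' deposited table). It also fell in PT, by 0.95 (SE 0.09 and adjusted p = 3.13e-22 by the authors' deposited table). The membrane-type enzymes Mmp14 and Mmp15 thus lay on opposite sides of 0 in both of the authors' deposited tables. The 3 that were higher, Mmp11, Mmp19 and Mmp23, named after their values were seen, averaged 5.89, 3.73 and 9.02 TPM in Mutant and 4.18, 2.13 and 5.12 TPM in Control in the authors' deposited table.

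Of 28 ADAM and ADAMTS proteases, 27 were in the authors' deposited table, and 7 were higher and 1 lower in Mutant (29.6% called, against 17.1% over all genes). Adam15, a membrane-bound disintegrin, averaged 19.1 TPM in Mutant and 11.4 TPM in Control (0.85, SE 0.14, adjusted p = 8.03e-08, all by the authors' deposited table), and was not called in PT (0.08, SE 0.13). Adamts14, which trims the amino-terminal propeptide of fibrillar collagens, averaged 45.3 TPM in Mutant and 33.7 TPM in Control (0.42, SE 0.07, adjusted p = 1.11e-07, all by the authors' deposited table). In PT it was lower, by −0.68 (SE 0.08 and adjusted p = 3.09e-17 by the authors' deposited table). Adam19 (0.25, SE 0.09, adjusted p = 0.0327) and Adam9 (0.26, SE 0.06, adjusted p = 0.000656) were higher in Mutant by less, in the authors' deposited table. For PT over PUT, 12 of 25 listed members of these families were called in the authors' deposited table, 6 in each direction, a share of 48% that is close to the 47.2% over all genes.

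Other inhibitors were read in the same way. Of Timp4, Reck, A2m and Pzp, the further inhibitors of metalloproteinases, 0 of 4 were called in Mutant in the authors' deposited table. That share of 0% stands against 17.1% over all genes, and 0 of the 4 had an unadjusted p below 0.05. Reck, a membrane-anchored inhibitor named after its values were seen, was at 3.48 TPM in Mutant and 2.08 TPM in Control, and was called higher in PT (0.70, SE 0.25, adjusted p = 0.0143), by the authors' deposited tables. Of 17 further serpins, 16 were in the authors' deposited table and 3 were called, all higher in Mutant, a share of 18.8% that is close to the 17.1% over all genes. Serpinb6a, an intracellular serpin, averaged 458 TPM in Mutant and 316 TPM in Control (0.52, SE 0.06, adjusted p = 1.45e-16, all by the authors' deposited table), and was slightly lower in PT (−0.17, SE 0.07, adjusted p = 0.0316). Of the 11 further genes of plasminogen activation, 1 was called in the authors' deposited table (9.09%, against 17.1% over all genes). It was Lrp1, the endocytic receptor that clears complexes of urokinase with its inhibitors, and also Mmp2 and Mmp9, from the surface. Lrp1 averaged 258 TPM in Mutant and 159 TPM in Control (0.65, SE 0.05, adjusted p = 4.53e-33, all by the authors' deposited table), and was not called in PT (0.12, SE 0.06, adjusted p = 0.0917). Plasminogen itself (Plg) was at 0.0175 TPM in Mutant and 0.0873 TPM in Control in the authors' deposited table.

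Lysosomal proteases and their inhibitors formed the next list. Of 15 cathepsins and cystatins, 9 were called in the authors' deposited table, all higher in Mutant, with a median log2 ratio of TPM of 0.29 against 0.01 over all genes. That is a share of 60% called, against 17.1% over all genes. Of the 15, 12 had a mean of 1 TPM or more, so the 2 shares cover genes of unlike level. The median test estimate over those 12 was 0.34, against −0.01 over all genes at that level, by the authors' deposited table. In PT 6 of 14 were called in the authors' deposited table, 2 higher and 4 lower, a share of 42.9% against 47.2% over all genes. The difference between the tables was not tested. Ctsd, the lysosomal aspartic protease, averaged 520 TPM in Mutant and 316 TPM in Control (0.70, SE 0.07, adjusted p = 1.18e-21, all by the authors' deposited table). In PT it was lower, by −0.24 (SE 0.07 and adjusted p = 0.00312 by the authors' deposited table). Cstb, an intracellular inhibitor of cysteine cathepsins, was higher in both (0.60, SE 0.11, adjusted p = 1.47e-06 in Mutant, and 1.30, SE 0.14, adjusted p = 2.95e-19 in PT) in the authors' deposited tables. Ctsh (0.69, SE 0.20, adjusted p = 0.00364) and Ctsb (0.38, SE 0.07, adjusted p = 9.77e-07) were higher in Mutant and not called in PT, in the authors' deposited tables.

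Among 19 activators, docking proteins and receptors, 6 were higher and 2 lower in Mutant, and 3 of 18 were higher and 6 lower in PT, in the authors' deposited tables. The shares called were 42.1% and 50%, against 17.1% and 47.2% over all genes. Mrc2, an endocytic collagen receptor that associates with the urokinase receptor, averaged 30.6 TPM in Mutant and 21.3 TPM in Control (0.59, SE 0.10, adjusted p = 2.08e-08, all by the authors' deposited table). Sdc1, a cell surface proteoglycan, averaged 119 TPM in Mutant and 85.6 TPM in Control (0.41, SE 0.07, adjusted p = 3.6e-07, all by the authors' deposited table). Itga3, a laminin-binding integrin subunit, was lower, at 38.3 TPM in Mutant and 56.6 TPM in Control (−0.55, SE 0.09, adjusted p = 3.81e-09, all by the authors' deposited table). Furin, the convertase that activates the Mmp14 proform, was at 157 TPM in Mutant and 153 TPM in Control in the authors' deposited table and was not called (0.08, SE 0.05, adjusted p = 0.333).

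**Figure D4:**
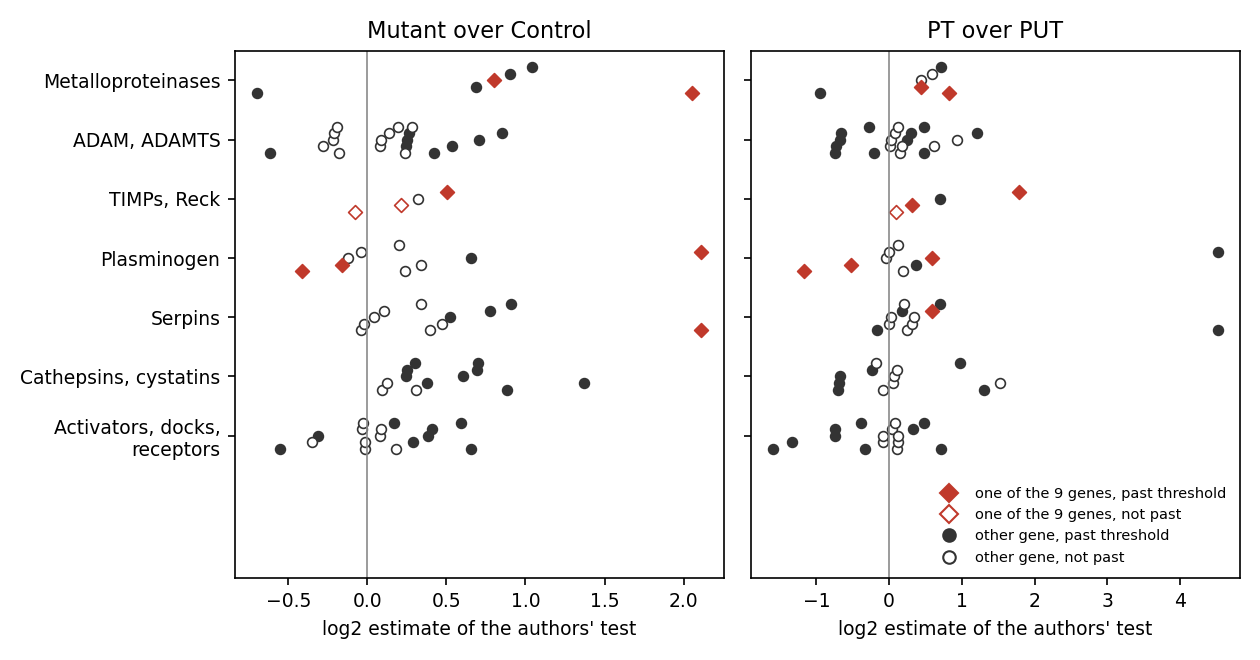
Estimates of the authors' tests on the log2 scale for those genes of the 7 lists whose mean reached 1 TPM, with Mutant over Control on the left and PT over PUT on the right (the horizontal axes differ). Red diamonds are those of the 9 genes of the account that reach this level, dark circles the others, and filled symbols passed an adjusted p of 0.05. Serpine2 and Mmp2 stand far to the right on the left side, and cathepsins lie on both sides of 0 on the right.

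Markers of the cultured cells and of other cell types were also read for Mutant over Control. The 10 satellite cell and myoblast markers summed to 2538 TPM in Mutant and 2573 TPM in Control in the authors' deposited table, with 3 higher and 4 lower. Of 10 macrophage and leukocyte markers 8 were listed and 2 were higher (Laptm5 and Cd68). Their sum was 112 TPM in Mutant and 33.0 TPM in Control, of which Laptm5 made up 84.8 and 25.1 TPM, by the authors' deposited table. Fcer1g, the next in level, averaged 19.3 TPM in Mutant and 3.22 TPM in Control and was not called (2.48, SE 1.27, adjusted p = 0.203, all by the authors' deposited table). By the same means of the authors' deposited table, Lyz2 had 0.608 TPM in Mutant and 0.197 TPM in Control, Csf1r 0.430 and 0.156, and the pan-leukocyte marker Ptprc 0.303 and 0.381. Estimates were positive for 6 of the 8 in the authors' deposited table. The 12 markers of fibroblasts, a cell type that makes Mmp2 and Timps, summed to 522 TPM in Mutant and 412 TPM in Control in the authors' deposited table. Of these sums Gsn, the 1 called higher, made up 229 and 110 TPM, so the difference in the sums rests on that gene. Col1a2, the 1 called lower, was at 31.9 and 51.3 TPM, by the authors' deposited table. Pdgfra was at 3.09 TPM in Mutant and 2.21 TPM in Control there, and Dcn at 1.07 and 1.05 TPM. The 10 endothelial markers summed to 26.2 TPM in Mutant and 30.9 TPM in Control, with 1 higher (Tek) and 2 lower (Pecam1 and Cdh5), by the authors' deposited table. The 9 smooth muscle and pericyte markers summed to 661 TPM in Mutant and 630 TPM in Control, with 2 higher (Notch3 and Rgs5), in the authors' deposited table. The shares called were 70% of satellite cell and myoblast markers, 25% of macrophage and leukocyte markers and 16.7% of fibroblast markers. They were 30% of endothelial and 22.2% of smooth muscle and pericyte markers, against 17.1% over all genes. No listed marker was at 0 in either mean, and the part of other cells in the values of the 9 genes was not tested.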

How the data were processed

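RNA of satellite cells was sequenced in 9 libraries, 3 each of Mutant, Cre Control and Control. Per the submitters' processing notes, the tools were Trim Galore 0.6.6, featureCounts 2.0.1 and DESeq2, with STAR 2.7.6a for Mutant and Control and HISAT2 2.2.1 for Cre Control, on GRCm38 (also mm10). The authors deposited, for genes, comparison tables only. The first gives mean TPM per group, with log2 fold changes, standard errors, p-values and adjusted p-values. Its deposited log2 fold change equals log2((Mutant mean TPM + 1)/(Control mean TPM + 1)) within 4.79e-08, whereas its standard error belongs to another estimate, the deposited statistic, a score value, times that error. That product is the test estimate used in the text. In both that table and the one of repeats, the header stands 1 column left of the values. The second table gives, per the file headers, a mean normalised count (a signal averaged by the authors), a log2 fold change, its standard error, a statistic and p-values. For repeats the authors deposited counts in whole numbers for each subfamily, used here only for IAPEz-int, with 1794698 to 2245124 counts per library.

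No model was fitted. Calls are the authors' adjusted p below 0.05 over all genes of a table. List counts, medians, sums and ratios were computed with Python 3.11.15 and pandas 2.3.3, and the Benjamini-Hochberg adjustment used for alternatives was tested on simulated data. Where a symbol stood on several rows, the row of the higher mean was used. Positions and overlaps came from GENCODE M21 (GRCm38), in which 22497 of 22631 gene identifiers matched without their version, and all 9 genes with it. Promoters came from RefSeq (GRCm38.p6). p-values measure the spread between libraries, which may be technical.

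The 9 genes, the lists and the markers were chosen with earlier results of these data known. The text names the 9 genes, and per list up to 4 further genes with an adjusted p below 0.05 and a mean of at least 10 TPM, by the largest log2 ratio of TPM. Some others are named for their role (Furin, Plg) or where the text says so. No comparison labelled as one with Cre Control was analysed here, and whether PT or PUT is that group is not stated.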

Additional observations from a re-analysis of the deposited data

How the results depend on the processing

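The total counts of called genes stayed within 1.5 times their value under each alternative tried, whereas the count of lower genes among the 9 went to 1 at the stricter threshold, against 2. For Mutant over Control the 6 calls among the 9 genes became 5 at an adjusted p below 0.01, where Plau dropped out. They remained 6 when p was adjusted only over genes whose mean reached 1 TPM, and when direction was taken from the statistic. The 7 calls for PT over PUT remained 7 at 0.01 and with p adjusted over genes with a mean normalised count of at least 10. Among the further genes of the 7 lists, 32 calls for Mutant over Control became 25 at 0.01 and 33 with the filter, and 35 for PT over PUT became 27 and 36.

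With a pseudocount of 0.1 TPM in place of 1, the log2 ratio of each of the 9 genes moved by less than its SE. The test estimate departed from the log2 ratio of TPM by more than an SE for Mmp9 (2.40 against 0.10) and Timp3 (−0.08 against −0.34), both low in TPM; the cause was not tested. No paired analysis was possible because the gene tables hold no values per library, and for the same reason no library could be left out. Depth per library is unknown for genes, which limits the statements on Mmp9 and Timp3.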

Other observations

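Serpinb2, plasminogen activator inhibitor 2, named after its values were seen, was higher in PT by 4.52 on the log2 scale (SE 0.97 and adjusted p = 1.38e-05 by the authors' deposited table), at a mean normalised count of 11.6. For Mutant over Control it averaged 1.80 TPM in Mutant and 2.05 TPM in Control (−0.04, SE 0.44), by the authors' deposited table. Cd63, a tetraspanin that binds Timp1 at the cell surface, also named after its values were seen, was lower in PT by −1.33 (SE 0.06, adjusted p = 7.62e-117), against −0.01 (SE 0.04) for Mutant over Control, in the authors' deposited tables. Whether these differences between the comparisons exceed their errors was not tested.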
